A study of Homo sapiens with 18 samples.

Results

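The transforming growth factor beta (TGF-beta) and bone morphogenetic protein (BMP) signalling genes were followed across 18 RNA-seq libraries of G401 cells. The set holds 46 genes of 55765 gene symbols in the deposited table, chosen by name as ligands, receptors, SMADs, ID genes, secreted antagonists and latency proteins of the pathway, and all 46 were found. Of these, 39 had a mean of at least 10 normalized counts over the 18 libraries and were tested among 16154 genes. A normalized count is the number of reads of a gene divided by a size factor of its library.

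G401 is a malignant rhabdoid tumour line. The control line, WT, was edited with CRISPR/Cas9 at AAVS1, a safe harbour site, and the lines E1 and F2 are each 1 clone with both copies of the tumour suppressor gene RB1 deleted. WT, E1 and F2 were each cultured for 11 days with 10 µM tazemetostat, which blocks the enzyme EZH2, or with the same volume of the solvent DMSO. Each of the 6 groups held 3 cultures labelled as biological replicates, so p-values rest on the spread between cultures of 1 line or 1 clone. This spread was pooled over all 6 groups for each gene, so it is not that of the compared groups alone.

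Ligands of this family bind pairs of type II and type I receptor kinases at the cell surface. TGF-beta and activin receptors phosphorylate SMAD2 and SMAD3, BMP receptors phosphorylate SMAD1, SMAD5 and SMAD9, and either set enters the nucleus with SMAD4. Inhibitory SMADs, the decoy receptor BAMBI and SMURF ubiquitin ligases dampen the signal inside the cell, while noggin, chordin and follistatin trap ligands outside it, and ID genes are textbook BMP targets. EZH2 is the histone methyltransferase of the Polycomb complex PRC2, which marks silent developmental genes, many of them with promoters rich in CG pairs.

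Promoter sequence is shown for 5 members that were higher with tazemetostat in all 3 lines and for LTBP1, whose change depended on the line. The sequences are from RefSeq on GRCh38.p14, read 5′ to 3′ on the gene's strand, cover 250 bases ending just before an annotated start, and have each CG pair in capitals.
SMAD1: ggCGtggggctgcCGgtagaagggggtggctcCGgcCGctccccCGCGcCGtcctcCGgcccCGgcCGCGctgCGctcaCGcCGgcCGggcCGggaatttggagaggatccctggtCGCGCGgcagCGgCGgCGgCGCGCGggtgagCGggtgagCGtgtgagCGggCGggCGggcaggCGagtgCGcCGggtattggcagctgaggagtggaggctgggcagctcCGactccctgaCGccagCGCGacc
ID4: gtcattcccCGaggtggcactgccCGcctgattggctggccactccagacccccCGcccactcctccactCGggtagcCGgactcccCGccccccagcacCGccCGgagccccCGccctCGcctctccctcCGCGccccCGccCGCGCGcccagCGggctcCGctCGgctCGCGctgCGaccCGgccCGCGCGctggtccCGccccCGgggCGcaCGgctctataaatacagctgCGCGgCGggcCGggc
BMPR1B: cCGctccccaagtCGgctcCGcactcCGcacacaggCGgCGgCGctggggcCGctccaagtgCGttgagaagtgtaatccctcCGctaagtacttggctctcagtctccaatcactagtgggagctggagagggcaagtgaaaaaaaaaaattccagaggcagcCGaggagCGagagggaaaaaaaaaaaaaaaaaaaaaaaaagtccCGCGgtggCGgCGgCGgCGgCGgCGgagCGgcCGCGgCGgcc
BMP6: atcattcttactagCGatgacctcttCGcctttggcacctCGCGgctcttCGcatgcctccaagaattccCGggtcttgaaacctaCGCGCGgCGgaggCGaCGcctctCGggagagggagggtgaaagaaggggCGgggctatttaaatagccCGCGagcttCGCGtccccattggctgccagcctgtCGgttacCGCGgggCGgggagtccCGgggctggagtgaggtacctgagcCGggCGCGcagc
INHBA: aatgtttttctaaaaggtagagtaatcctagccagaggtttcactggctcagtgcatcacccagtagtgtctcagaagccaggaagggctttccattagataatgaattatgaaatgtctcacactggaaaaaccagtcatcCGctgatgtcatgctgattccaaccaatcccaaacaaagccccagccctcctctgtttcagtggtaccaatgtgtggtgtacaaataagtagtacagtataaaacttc
LTBP1: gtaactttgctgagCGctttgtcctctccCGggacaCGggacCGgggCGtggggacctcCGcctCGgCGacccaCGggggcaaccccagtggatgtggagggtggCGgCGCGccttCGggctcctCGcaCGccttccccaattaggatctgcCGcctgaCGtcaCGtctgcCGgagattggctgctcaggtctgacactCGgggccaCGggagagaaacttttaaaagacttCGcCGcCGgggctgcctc
They lie at chr4:145481603-145481852 on the plus strand for SMAD1, chr6:19837120-19837369 on the plus strand for ID4 and chr4:94757705-94757954 on the plus strand for BMPR1B. BMP6 is at chr6:7725849-7726098 on the plus strand, INHBA at chr7:41703091-41703340 on the minus strand and LTBP1 at chr2:32946703-32946952 on the plus strand. The stretch of SMAD1 held 37 CG pairs, that of ID4 34, those of BMPR1B and LTBP1 24 each, that of BMP6 26 and that of INHBA 1. INHBA thus stood apart from the other 5 in its CG content.

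RefSeq windows of 300 bases around annotated starts were found for 42 of the 46 members, 72 windows in all, and those of BMP2, BMP7, GDF6 and NOG were not matched. The median window of the members held 28 CG pairs, against 14 over all 35116 windows and 25 over windows of the tested genes. SMAD1 has 5 listed windows with 5 to 40 CG pairs, BMPR1B 3 with 2 to 34 and LTBP1 3 with 7 to 33, so the windows shown are the richest of each gene. Taking the richest window per gene, the median was 33 CG pairs for members and 28 for tested genes (quartiles 21 and 36). BMPR1B (34), BMP6 (33) and LTBP1 (33) lay between these quartiles. Known binding letters were looked for on both strands: the GC-rich SMAD site GGCGCC, the palindromic SMAD site GTCTAGAC, and the E2F sites TTTCCCGC and TTTGGCGC, the last of which overlaps GGCGCC when a C follows. GGCGCC was in 19 member windows of 17 members, 26.4% of member windows against 19.2% of all windows. It holds a CG pair itself, and its share over windows matched for CG pairs was not counted. GTCTAGAC was in 1 member window, that of SMAD6, 1.39% of member windows against 0.202% of all windows. Neither E2F sequence was in a member window, against 1.63% of all windows for TTTCCCGC and 0.652% for TTTGGCGC. None of the printed stretches held any of these letters.

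The libraries held 25709489 to 39314860 reads assigned to genes. RB1 was at 2300.4 normalized counts or more in every WT library and at 505 to 1045 in the libraries of E1 and F2. Reads of RB1 were thus fewer in both clones but not absent. SMARCB1, the gene lost in rhabdoid tumours, had 0 reads in all 18 libraries, and immune markers (PTPRC, CD3E, CD14) summed to at most 5.55 normalized counts. The E1 DMSO libraries differed most among themselves, with a chi-square per gene of 29.7 to 61.9 between pairs against 2.32 to 21.4 between pairs in the other groups. Fewer cells of a kind and less RNA per cell cannot be told apart in bulk RNA.

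In GENCODE v29, 15 members overlap a gene on the opposite strand, and their reads cannot be told apart unless the counting used strand, which was not given in the sources used here. They are TGFB1, TGFB3, GDF11, GDF5, ACVR2A, SMAD1, SMAD3, SMAD5, SMURF1, SMURF2, ID2, CHRD, GREM1, LTBP1 and LTBP2.

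Tazemetostat raised 4 ligands, 1 receptor, SMAD1, ID4 and 2 antagonists in all 3 lines, while most receptors, SMADs and their inhibitors did not pass the threshold. In WT 13 of 39 tested members were higher and 1 lower with tazemetostat, taking an adjusted p below 0.05 in limma together with a log2 change of 1 or more in size, where 14.5% of all tested genes were higher and 6.77% lower. In E1 the numbers were 12 higher and 1 lower, against 11.3% and 3.78% of all tested genes, and in F2 15 higher and 4 lower, against 13.3% and 3.71%. The median log2 change of the tested members was 0.56 (WT), 0.41 (E1) and 0.44 (F2), and that of all tested genes lay between 0.021 and 0.026. These 9 members were higher in every line: the ligands INHBA, BMP6, BMP7 and GDF6, the receptor BMPR1B, the signal transducer SMAD1, the target ID4, and the antagonists NOG and CHRD. Another 5 were higher in 2 lines (TGFB1, TGFBR1, ACVR2A, FSTL3 and LTBP2), and 19 passed the threshold in no line, with log2 changes between -0.67 and 0.92.

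A gene with next to no reads in DMSO enters the test only through its treated libraries, so it had to differ. This held for 5 of the tested members, INHBA, GDF6, BMPR1B, SMAD1 and NOG, whose mean was under 10 in every DMSO group. Over the 34 members with a DMSO group mean of at least 10, a count added after the data were seen, 8 rose in WT (8.99% of 15146 such genes), 7 in E1 (5.7%) and 10 in F2 (7.69%). The mean had to reach 10 in at least 1 of the 3 DMSO groups, not in the line compared. These rises thus still hold ID4 in WT (DMSO mean 7.40) and E1 (8.07), and BMP7 (4.08) and TGFB2 (6.20) in F2. In the same set 1 member fell in WT (7.21% of genes), 1 in E1 (3.97%) and 4 in F2 (3.96%). The median log2 change of these 34 members was 0.47 (WT), 0.31 (E1) and 0.31 (F2), against -0.019, -0.004 and -0.01 over all such genes. Scaling every library to the same total in place of the deposited scaling moved the median change of all tested genes in WT from 0.026 to -0.13. Under it the WT rises of TGFB1 (0.88), CHRD (0.99) and LTBP2 (0.85) fell short of a log2 change of 1, as did TGFB1 in E1 (0.96) and CHRD in F2 (0.99), and the numbers elsewhere in the text are on the deposited scaling. Summed epithelial marker RNA (EPCAM, CDH1, KRT18, KRT8) was also higher with tazemetostat, from 39287 to 43898 in WT DMSO libraries and from 270800.0 to 283120.0 in WT tazemetostat libraries. In E1 it was 56760.1 to 85168 and 151661 to 158508, and in F2 22181 to 24417 and 146779 to 157846. Nearly all of this sum is KRT8 and KRT18, and the other 2 markers had other patterns. CDH1 overlapped between WT DMSO (229.96 to 282.7) and WT tazemetostat libraries (280.8 to 421.8), and was higher with tazemetostat in E1 (8.04 to 25.3, then 114.0 to 159.6) and F2 (114.1 to 167.0, then 247.9 to 278.6). EPCAM overlapped in WT (11.3 to 16.6, then 9.85 to 13.5) and was lower with tazemetostat in E1 (8.04 to 9.74, then 0.942 to 4.84) and F2 (11.4 to 19.5, then 4.04 to 8.74). The sum of 2 endothelial markers, CDH5 and VWF, was 0.946 to 8.93 in DMSO and 27.1 to 65.6 with tazemetostat. The part of these changes in the member results was not tested.

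**Figure D1:**
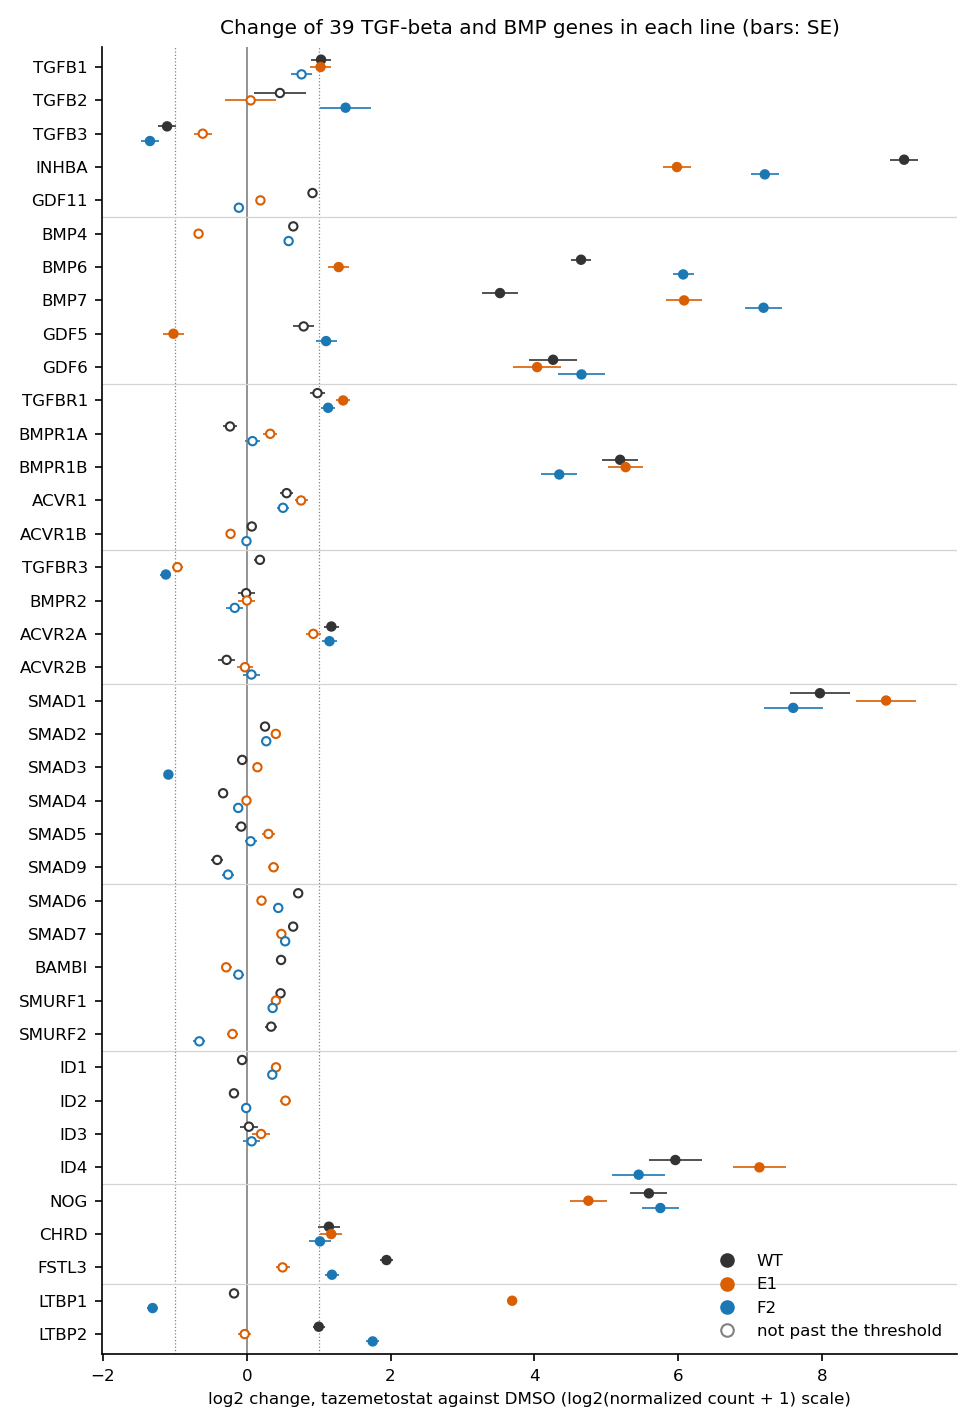
Log2 change with tazemetostat against DMSO on the log2(normalized count + 1) scale (horizontal axis) for the 39 tested members (rows, ordered by role and divided by grey lines) in WT (black), E1 (orange) and F2 (blue). Points are limma estimates with bars of 1 SE, filled where past the threshold, and dotted lines stand at -1 and 1. INHBA, GDF6, BMPR1B, SMAD1, ID4 and NOG lie beyond 4 in each line, while the SMURFs, SMAD2, SMAD4 and SMAD5 lie between the dotted lines.

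Of the 6 TGF-beta and activin ligands 5 were tested, and 2 rose in each line. INHBA, which encodes the activin A subunit, went from no read to clear expression. INHBA in DMSO had no read in any of the 9 libraries, and with tazemetostat it measured 601, 642 and 464 in WT, 64.9, 57.1 and 65.0 in E1, while F2 had 144, 168 and 130.4. Treated libraries of all lines stood apart from DMSO, those of WT were the highest and those of E1 the lowest, with no overlap between lines. Against a floor of 3 reads per library, INHBA was at least 206-fold higher in WT, at least 22.0-fold in E1 and at least 45.0-fold in F2. Its level with tazemetostat was lower than in WT in E1 (log2 difference ± SE -3.16 ± 0.195, adjusted p = 3.5e-10) and in F2 (-1.94 ± 0.195, adjusted p = 1.8e-07) in limma.

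TGFB1, the most widely expressed TGF-beta isoform, changed little more than the fold limit. In DMSO TGFB1 measured 1175, 1266 and 1153 in WT, 1168, 1157 and 683 in E1, while F2 had 1536, 1775 and 1685. With tazemetostat TGFB1 measured 2338, 2473 and 2549 in WT, 2023, 1859 and 2080.4 in E1, while F2 had 3132, 2681 and 2678. Every treated library was above every DMSO library of its line, and the third E1 DMSO library was well below the other two. limma gave a log2 change ± SE of 1.03 ± 0.141, adjusted p = 3.8e-06 in WT and 1.03 ± 0.141, adjusted p = 6.6e-06 in E1, and 0.76 in F2, under the fold limit. Leaving out E1 DMSO replicate 3 lowered the E1 change to 0.77, leaving out E1 tazemetostat replicate 3 gave 0.99, and it was also under the limit with edgeR (0.97) and DESeq2 (0.98) on the recovered reads.

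TGFB3, another isoform, went the other way. In DMSO TGFB3 measured 278, 241 and 247 in WT, 159, 165 and 182 in E1, while F2 had 279, 267 and 313. With tazemetostat TGFB3 measured 109, 111 and 134 in WT, 116, 95.7 and 119.7 in E1, while F2 had 104, 117 and 115. Treated libraries were below DMSO libraries in each line. TGFB3 fell in WT (log2 change -1.11 ± 0.122, adjusted p = 2.4e-07) and F2 (-1.35 ± 0.122, adjusted p = 2e-08) in limma, and in E1, which started lower, the change was -0.61.

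TGFB2 was low throughout, at 3.11 to 25.9 normalized counts, and passed the threshold in F2 only (log2 change 1.38 ± 0.357, adjusted p = 0.0033, limma), on 17 reads in DMSO and 53 with tazemetostat, at a ratio of means of 2.74 (exact 95% interval 1.56 to 5.05). That call was lost with a pseudocount of 5 (0.99). GDF11, an activin-like ligand, passed the limit in no line, but its responses in F2 and WT differed. In DMSO GDF11 measured 1672, 1669 and 1658 in WT, 1441, 1387 and 1396 in E1, while F2 had 1458, 1469 and 1463. With tazemetostat GDF11 measured 3209.6, 3102 and 3119 in WT, 1533, 1601 and 1694 in E1, while F2 had 1343, 1359 and 1369. WT treated libraries stood far above all others, and in F2 treated libraries were slightly below DMSO. The change was 0.92 (WT), 0.19 (E1) and -0.11 (F2), and the response of F2 was lower than that of WT (log2 difference -1.02 ± 0.0703, adjusted p = 1.2e-08, limma). Under scaling to the same total this difference was -0.90. INHBB, the other activin subunit, was too low to test, with at most 1 read in any DMSO library and 2.81 to 18.4 normalized counts with tazemetostat, the highest in F2.

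Of the 8 BMP and GDF ligands 5 were tested, and 3 rose in each of WT and E1 and 4 in F2. BMP6 and BMP7 were high with tazemetostat in every line, from DMSO levels that differed between lines. BMP6 in DMSO measured 33.2, 31.1 and 37.9 in WT, 709, 686 and 696 in E1, while F2 had 11.3, 9.34 and 17.0. With tazemetostat BMP6 measured 868, 904 and 856 in WT, 1682, 1725 and 1669.6 in E1, while F2 had 885, 797 and 975. E1 was already high without the inhibitor, WT was low and F2 lowest, and no treated library overlapped a DMSO library of its line. Mean BMP6 was 25.7-fold higher with tazemetostat in WT, 2.43-fold in E1 and 70.7-fold in F2. limma gave log2 changes of 4.65 ± 0.145, adjusted p = 2.8e-15 in WT, 1.28 ± 0.145, adjusted p = 5.4e-07 in E1 and 6.07 ± 0.145, adjusted p = 5.9e-17 in F2. The rise was smaller in E1 than in WT (-3.37 ± 0.205, adjusted p = 1.6e-09) and larger in F2 than in WT (1.42 ± 0.205, adjusted p = 4.7e-05), both tested in limma as a difference of responses.

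BMP7 started from a different order of the lines in DMSO, again with the lowest mean in F2. BMP7 in DMSO measured 71.6, 71.6 and 66.2 in WT, 12.5, 5.79 and 16.6 in E1, while F2 had 3.07, 3.11 and 6.07. With tazemetostat BMP7 measured 844, 782 and 813 in WT, 780.4, 783 and 816 in E1, while F2 had 737, 700.4 and 706. WT was the highest in DMSO and the clones were close to nil, while the treated libraries of the 3 lines lay within 700.4 to 844. Mean BMP7 was 11.6-fold higher in WT, 68.3-fold in E1 and 175-fold in F2, where DMSO held 11 reads and the exact 95% interval ran from 97.6 to 351. limma gave log2 changes of 3.52 ± 0.252, adjusted p = 5.3e-10 in WT, 6.08 ± 0.252, adjusted p = 1.8e-13 in E1 and 7.19 ± 0.252, adjusted p = 1.3e-14 in F2. The rise was larger than in WT in E1 (difference 2.56 ± 0.356, adjusted p = 2.1e-05) and in F2 (3.66 ± 0.356, adjusted p = 5.7e-07, limma).

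GDF6 rose from at most 1 read in any DMSO library. With tazemetostat GDF6 measured 22.7, 18.7 and 28.3 in WT, 14.9, 17.4 and 14.1 in E1, while F2 had 36.9, 48.4 and 34.2, on log2 changes of 4.26 (WT), 4.04 (E1) and 4.66 (F2). Its level was at least 5.47-fold higher in E1, where DMSO libraries had no read, and the ratios in WT and F2 rest on 1 and 2 DMSO reads. These ratios were 74.0 (exact 95% interval 12.8 to 2965) in WT and 58.0 (exact 95% interval 15.7 to 484) in F2.

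BMP4, a BMP ligand with many roles in development, passed the fold limit in no line, but its responses differed between lines. BMP4 in DMSO measured 7354, 7595 and 7413 in WT, 8541, 8539.5 and 7293 in E1, while F2 had 4749, 4750.0 and 4675. With tazemetostat BMP4 measured 11459, 10900.0 and 12768 in WT, 5179, 4978 and 5132 in E1, while F2 had 7259, 6904 and 7079. Treated libraries were above DMSO in WT and F2 and below DMSO in E1, with no overlap in any line. The log2 changes were 0.65 (WT), -0.67 (E1) and 0.58 (F2). The response of E1 was lower than that of WT (log2 difference -1.32 ± 0.0921, adjusted p = 7.1e-09) and lower than that of F2 (-1.25 ± 0.0921, adjusted p = 2e-08, limma).

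GDF5, a ligand of cartilage and joint formation, also split. GDF5 in DMSO measured 109, 102 and 93.7 in WT, 103, 85.9 and 79.9 in E1, while F2 had 111, 159.8 and 153. With tazemetostat GDF5 measured 190.2, 179.6 and 160.1 in WT, 42.6, 46.4 and 41.5 in E1, while F2 had 303, 275 and 327. Treated libraries were above DMSO in WT and F2 and below it in E1. GDF5 rose in F2 (log2 change 1.10 ± 0.146, adjusted p = 3.4e-06) and fell in E1 (-1.02 ± 0.146, adjusted p = 1.1e-05) in limma, and its change in WT was 0.79. Both calls sat near the limit: without F2 DMSO replicate 1 the F2 change was 0.94, and the E1 change was -0.92 without E1 DMSO replicate 1, -0.99 without E1 tazemetostat replicate 3 and -0.96 with a pseudocount of 5. The difference between the responses of E1 and F2 was -2.12 ± 0.207, adjusted p = 7.6e-07 (limma) and was past the threshold under every alternative run. BMP5 had no read in DMSO and was at least 3.32-fold higher in WT and 5.22-fold in F2, with at most 3 reads in any E1 library, and BMP2 and GDF10 had at most 6 reads in any library.

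**Figure D2:**
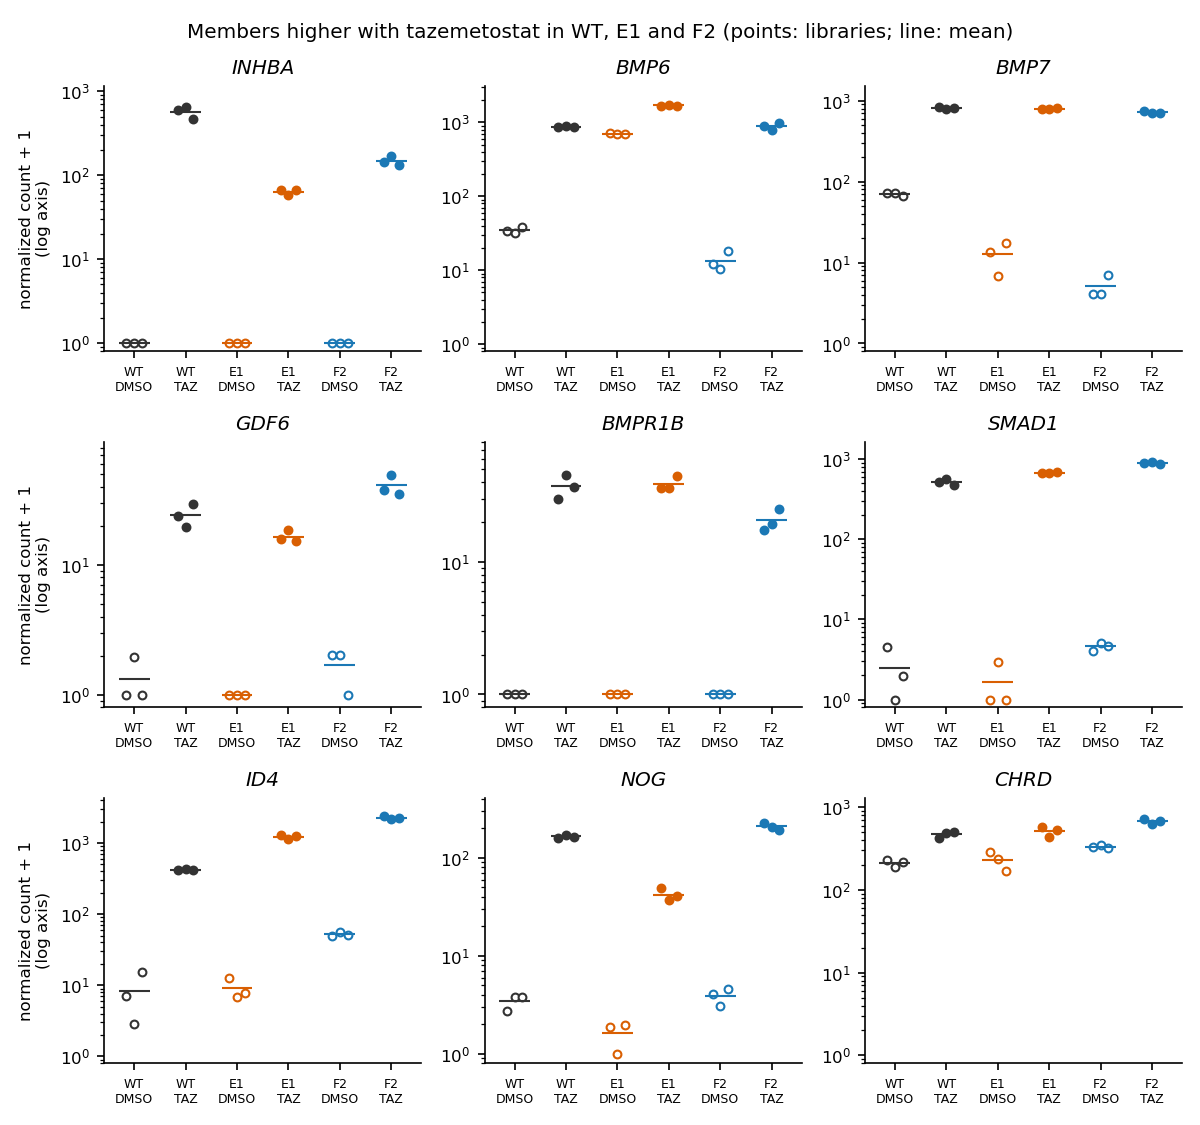
Normalized count plus 1 (vertical log axis, a separate range for each gene) in the 18 libraries for the 9 members higher with tazemetostat in WT, E1 and F2. Points are libraries, open for DMSO and filled for tazemetostat, and lines are group means. Treated libraries sit above the DMSO libraries of the same line for each gene, and the DMSO level of BMP6, BMP7 and ID4 differs between lines.

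Of 5 type I receptors 1 rose in WT and 2 in each clone, and of 4 tested type II receptors and co-receptors 1 rose in WT and 1 in F2, where 1 also fell. BMPR1B, a type I BMP receptor, had no read in any DMSO library and with tazemetostat measured 28.6, 44.0 and 35.7 in WT, 35.1, 34.8 and 43.3 in E1, while F2 had 16.5, 18.2 and 24.0. This was at least 13.1-fold higher in WT, at least 13.3-fold in E1 and at least 5.98-fold in F2, against the floor of 3 reads per library. limma log2 changes were 5.19, 5.27 and 4.35, and the differences between lines in response were not past the threshold. The ubiquitous type I receptor BMPR1A had log2 changes of -0.23 to 0.33 over the 3 lines.

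TGFBR1, the type I receptor for TGF-beta, was higher with the inhibitor. In DMSO TGFBR1 measured 1979, 1965 and 1842 in WT, 1746, 1388 and 1928 in E1, while F2 had 1925, 1709 and 1759.5. With tazemetostat TGFBR1 measured 4028, 4057 and 3396 in WT, 3868, 4554 and 4317 in E1, while F2 had 3802, 3947 and 4064. Treated libraries were all above all DMSO libraries. The mean was 1.98-fold higher in WT (log2 change 0.98, just under the limit), 2.52-fold in E1 (1.34 ± 0.0994, adjusted p = 1.2e-09) and 2.19-fold in F2 (1.13 ± 0.0994, adjusted p = 1.2e-08, limma). Its partner TGFBR2, the type II receptor that binds TGF-beta ligands, had at most 5 reads in any library and was not tested. ACVR1 and ACVR1B, type I receptors for BMPs and activins, had log2 changes of 0.51 to 0.76 and of -0.22 to 0.07.

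ACVR2A, a type II receptor shared by activins and BMPs, rose in WT and F2. In DMSO ACVR2A measured 172, 144 and 172 in WT, 182, 174 and 199 in E1, while F2 had 152, 178 and 194. With tazemetostat ACVR2A measured 367, 371 and 367 in WT, 320.5, 359.8 and 377 in E1, while F2 had 366, 403 and 394. No treated library overlapped a DMSO library. The log2 change was 1.18 ± 0.108, adjusted p = 1.9e-08 in WT and 1.15 ± 0.108, adjusted p = 3.4e-08 in F2 (limma), and 0.93 in E1. BMPR2, the main BMP type II receptor, and ACVR2B, an activin type II receptor, had log2 changes of -0.28 to 0.07.

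TGFBR3, or betaglycan, is a co-receptor that presents TGF-beta ligands and can bind inhibin. In DMSO TGFBR3 measured 7832, 7605 and 7028 in WT, 11462, 9660.3 and 11552 in E1, while F2 had 6821, 6799 and 6195. With tazemetostat TGFBR3 measured 8956, 8504 and 8060.1 in WT, 5104, 5837 and 5797 in E1, while F2 had 2869, 3048 and 3172. Treated libraries were below DMSO in both clones and slightly above it in WT. TGFBR3 fell in F2 (log2 change -1.12 ± 0.0773, adjusted p = 3.4e-10, limma), and the change was -0.96 in E1 and 0.18 in WT. The response was lower than that of WT in E1 (difference -1.15 ± 0.109, adjusted p = 2.9e-07) and in F2 (-1.31 ± 0.109, adjusted p = 1e-07, limma).

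Of the 5 SMADs that receptors activate and SMAD4, SMAD1 alone rose, in every line. It was nearly silent in DMSO and clearly expressed with tazemetostat. SMAD1 in DMSO measured 3.49, 0 and 0.946 in WT, 0, 1.93 and 0 in E1, while F2 had 3.07, 4.15 and 3.64. With tazemetostat SMAD1 measured 521, 557 and 472 in WT, 669.7, 671 and 693 in E1, while F2 had 889, 909 and 874. The treated libraries of each line were higher than every DMSO library, in the order F2, E1, WT with no overlap between lines. The ratio of means was 349 (exact 95% interval 149 to 1077) in WT, 1053 (exact 95% interval 291 to 8702) in E1, and 246 (exact 95% interval 134 to 514) in F2, resting on 5, 2 and 10 DMSO reads. limma gave log2 changes of 7.97 ± 0.412 (WT), 8.89 ± 0.412 (E1) and 7.60 ± 0.412 (F2), given as a description because SMAD1 entered the test through its treated libraries. The gene that overlaps SMAD1 on the other strand is SMAD1-AS1. The other BMP SMADs did not pass the limit with tazemetostat, with log2 changes of -0.08 to 0.30 for SMAD5 and -0.41 to 0.37 for SMAD9.

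SMAD9 differed between F2 and WT. In DMSO SMAD9 measured 1013, 891 and 972 in WT, 822, 714 and 935 in E1, while F2 had 2208, 2219 and 2201. With tazemetostat SMAD9 measured 751, 709.9 and 701 in WT, 1029.6, 1048 and 1107 in E1, while F2 had 1907, 1876 and 1758. F2 libraries were above all others under both conditions. SMAD9 was higher in F2 than in WT in DMSO (log2 difference 1.21 ± 0.0805, adjusted p = 4e-09) and with tazemetostat (1.36 ± 0.0805, adjusted p = 1.7e-10, limma).

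SMAD3, the TGF-beta SMAD that binds DNA, fell in F2. In DMSO SMAD3 measured 2299.8, 2351 and 2471 in WT, 1698, 1354 and 1530.4 in E1, while F2 had 2694, 2617 and 2829. With tazemetostat SMAD3 measured 2288, 2225 and 2305 in WT, 1650.3, 1736 and 1676 in E1, while F2 had 1297, 1281 and 1247. Treated F2 libraries were the lowest of all 18, whereas treated and DMSO libraries overlapped in WT and E1. The log2 change was -1.09 ± 0.0675, adjusted p = 7.1e-11 in F2 (limma), -0.06 in WT and 0.15 in E1. The F2 response was lower than that of WT (difference -1.03 ± 0.0954, adjusted p = 3.4e-07) and the E1 response was higher than that of F2 (1.24 ± 0.0954, adjusted p = 3.7e-08, limma). The difference from WT was -0.90 under scaling to the same total and also fell just short of the limit without F2 DMSO replicate 3. SMAD2, the other TGF-beta SMAD, had log2 changes of 0.26 to 0.41, and the common partner SMAD4 -0.33 in WT and -0.12 in F2.

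Of the 5 inhibitors inside the cell none passed the limit with tazemetostat in any line. SMAD6, which blocks BMP signalling, had log2 changes of 0.72 (WT), 0.21 (E1) and 0.44 (F2), and SMAD7, which blocks both branches, 0.65, 0.48 and 0.54. Those of SMURF1 were 0.36 to 0.47 and those of SMURF2 -0.66 to 0.34. BAMBI, a receptor lookalike without a kinase, had -0.28 to 0.48. With tazemetostat BAMBI was lower in F2 than in WT (log2 difference -1.06 ± 0.0739, adjusted p = 1.5e-09, limma), which became -0.91 under scaling to the same total and -0.99 without F2 tazemetostat replicate 2.

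ID proteins bind and disable basic helix-loop-helix factors. ID1, ID2 and ID3, the best known BMP targets, had log2 changes of -0.18 to 0.54 over the 3 lines and passed in none, while ID4 rose in each. ID4 in DMSO measured 6.11, 1.88 and 14.2 in WT, 11.6, 5.79 and 6.82 in E1, while F2 had 48.1, 55.0 and 49.8. With tazemetostat ID4 measured 416, 434 and 414 in WT, 1284, 1127 and 1267 in E1, while F2 had 2386, 2153 and 2265. F2 stood above WT and E1 in DMSO and with tazemetostat, and the treated libraries did not overlap between lines. The ratio of means was 56.9 (exact 95% interval 38.1 to 89.2) in WT, 152 (exact 95% interval 104 to 233) in E1, and 44.5 in F2. limma gave log2 changes of 5.96 ± 0.368, adjusted p = 6.2e-11 in WT, 7.13 ± 0.368, adjusted p = 5.2e-12 in E1 and 5.45 ± 0.368, adjusted p = 2.6e-10 in F2.

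Of 5 antagonists outside the cell 3 were tested, of which NOG and CHRD rose in each line and FSTL3 in WT and F2. NOG encodes noggin, which binds BMPs and keeps them from their receptors. NOG in DMSO measured 1.75, 2.83 and 2.84 in WT, 0.893, 0 and 0.974 in E1, while F2 had 3.07, 2.07 and 3.64. With tazemetostat NOG measured 159, 171 and 164 in WT, 47.9, 35.8 and 39.6 in E1, while F2 had 226, 207 and 191. All treated libraries were above all DMSO libraries, and treated E1 libraries were below those of WT and F2. The ratio of means was 66.6 (exact 95% interval 33.5 to 155) in WT, 66.0 (exact 95% interval 17.9 to 551) in E1, and 71.1 (exact 95% interval 35.9 to 165) in F2. limma gave log2 changes of 5.59 ± 0.257 (WT), 4.75 ± 0.257 (E1) and 5.75 ± 0.257 (F2), also a description for the same reason.

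CHRD encodes chordin, another BMP trap. In DMSO CHRD measured 231, 188 and 218 in WT, 288, 238 and 167 in E1, while F2 had 329.9, 346 and 318. With tazemetostat CHRD measured 428, 485 and 496 in WT, 580.3, 436 and 525 in E1, while F2 had 718, 628 and 673. Treated libraries were above DMSO libraries in each line. limma gave log2 changes of 1.14 ± 0.153, adjusted p = 2.9e-06 in WT, 1.18 ± 0.153, adjusted p = 3.2e-06 in E1 and 1.02 ± 0.153, adjusted p = 1.5e-05 in F2. In E1 the change was 0.96 without DMSO replicate 3, and in F2 it was 0.97 without tazemetostat replicate 1 and 0.99 without DMSO replicate 3. THPO overlaps CHRD on the opposite strand in GENCODE v29.

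FSTL3 encodes a follistatin-like protein that binds activins. In DMSO FSTL3 measured 589.6, 613 and 558 in WT, 648, 801 and 568 in E1, while F2 had 527, 508 and 493. With tazemetostat FSTL3 measured 2162, 2462 and 2167 in WT, 965, 917 and 942 in E1, while F2 had 1242, 1127 and 1110.0. Treated libraries were above DMSO in each line, and those of WT were the highest. FSTL3 rose in WT (log2 change 1.94 ± 0.0964, adjusted p = 2.5e-12) and F2 (1.19 ± 0.0964, adjusted p = 4.1e-09) in limma, and in E1 the change was 0.50. Its response in E1 was lower than that in WT (difference -1.45 ± 0.136, adjusted p = 2.5e-07, limma). FST, encoding follistatin, had no read in DMSO and was at least 1.67-fold higher in WT, 8.89-fold in E1 and 3.05-fold in F2, and the BMP antagonist GREM1 had at most 3 reads in any library.

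Latency proteins hold secreted TGF-beta in the matrix in an inactive form. LTBP1, which binds latent TGF-beta directly, differed widely between the lines. LTBP1 in DMSO measured 2049, 1985 and 1916 in WT, 153, 172 and 174 in E1, while F2 had 6177, 6287 and 5535. With tazemetostat LTBP1 measured 1785, 1885 and 1608 in WT, 2039.9, 2179.9 and 2256 in E1, while F2 had 2462, 2306 and 2493. E1 was far below and F2 far above WT in DMSO, and with tazemetostat the 3 lines lay within 1608 to 2493. LTBP1 was 13.0-fold higher with tazemetostat in E1 (log2 change 3.69 ± 0.0736, adjusted p = 6.5e-18) and 2.48-fold lower in F2 (-1.31 ± 0.0736, adjusted p = 1.7e-11), and its log2 change in WT was -0.18 (limma). The response differed from that of WT in E1 (3.87 ± 0.104, adjusted p = 4.9e-14) and in F2 (-1.13 ± 0.104, adjusted p = 3e-07), and E1 and F2 differed from each other (5.00 ± 0.104, adjusted p = 2.7e-16, limma).

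LTBP2 is a related matrix protein that does not bind latent TGF-beta. In DMSO LTBP2 measured 31557, 32429 and 32714 in WT, 67659.7, 53179.5 and 52875 in E1, while F2 had 12292, 12739 and 13175. With tazemetostat LTBP2 measured 64481, 63331 and 65845 in WT, 60224, 51223 and 58193 in E1, while F2 had 44495, 42914 and 41315. F2 was lowest in DMSO, E1 highest, and in E1 treated and DMSO libraries overlapped. LTBP2 rose in F2 (log2 change 1.75 ± 0.0865, adjusted p = 2.2e-12) and, at the very limit, in WT (1.00 ± 0.0865, adjusted p = 7.9e-09) in limma. Its WT call was lost under TMM scaling (0.99), edgeR (0.99) and DESeq2 (just below the limit), and without WT DMSO replicate 1 or WT tazemetostat replicate 3 (0.99 each). Its response in E1 was lower than that in WT (difference -1.03 ± 0.122, adjusted p = 3.7e-06) and lower than that in F2 (-1.78 ± 0.122, adjusted p = 8e-09, limma), and the former was under the limit with scaling to the same total and without E1 DMSO replicate 1 (-0.91) or E1 tazemetostat replicate 2 (-0.96).

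**Figure D3:**
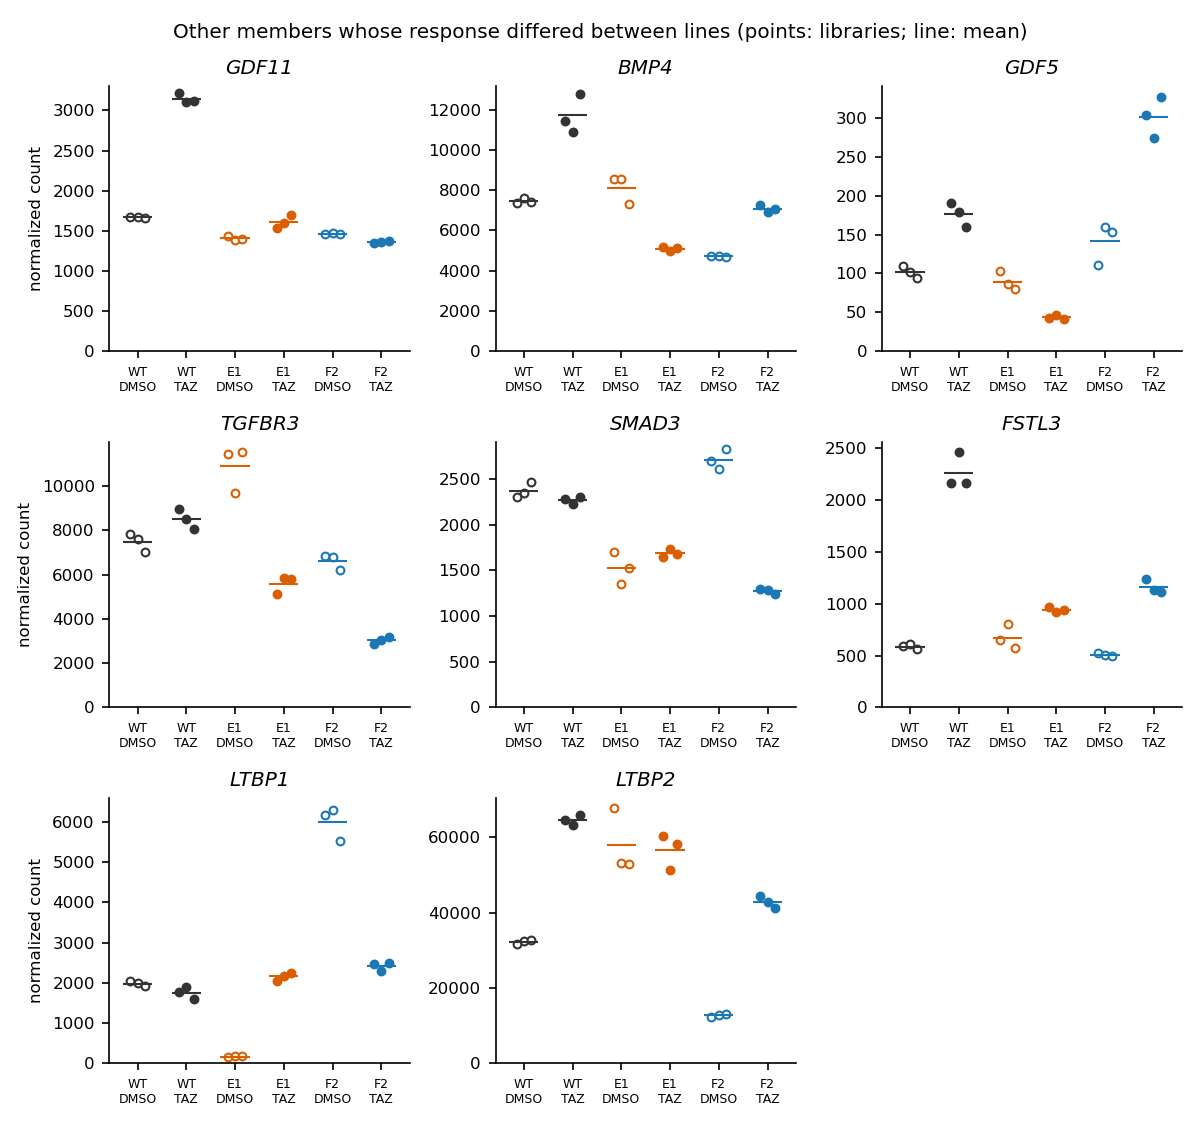
Normalized count (vertical axis from 0, a separate range for each gene) in the 18 libraries for the 8 other members whose response to tazemetostat differed between lines. Points are libraries, open for DMSO and filled for tazemetostat, and lines are group means. LTBP1 spans 153 to 6287 in DMSO and 1608 to 2493 with tazemetostat, and BMP4 and GDF5 lie lower with tazemetostat in E1 and higher in WT and F2.

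The second comparison set each RB1-deleted clone against WT. Each clone is a single isolate, so the loss of RB1 and other differences between the clone and WT cannot be told apart, and the comparisons of E1 and F2 share the WT libraries. In DMSO most of the 39 tested members were not past the threshold against WT in either clone. E1 had 1 member higher (BMP6) and 3 lower (BMP7, NOG, LTBP1), against 2.35% and 2.69% of all tested genes. F2 had 3 higher (SMAD9, ID4, LTBP1) and 4 lower (TGFB2, BMP6, BMP7, LTBP2), against 0.885% and 2.09%. As shares of the 39 members these were 2.56% and 7.69% in E1, and 7.69% and 10.3% in F2.

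LTBP1 was lower in E1 (-3.57 ± 0.0736, adjusted p = 9.1e-17) and higher in F2 (1.60 ± 0.0736, adjusted p = 1.9e-11), and BMP6 was higher in E1 (4.32 ± 0.145, adjusted p = 1e-13) and lower in F2 (-1.41 ± 0.145, adjusted p = 1.3e-06), as log2 differences from WT in limma. BMP7 was lower in E1 (-2.59 ± 0.252, adjusted p = 3.7e-07) and in F2 (-3.85 ± 0.252, adjusted p = 3.1e-09, limma). ID4 was higher in F2 (2.94 ± 0.368, adjusted p = 1.5e-05) and LTBP2 lower in F2 (-1.34 ± 0.0865, adjusted p = 2.6e-09, limma). NOG in E1 had 2 reads against 8 in WT, both groups under the floor, and its call was not made by edgeR (adjusted p = 0.15) or DESeq2 (adjusted p = 0.23), nor without E1 DMSO replicate 2 (log2 difference -0.83). TGFB2 in F2 had 17 reads against 46 and lost its call under 8 alternatives, among them leaving out WT DMSO replicate 2, WT DMSO replicate 3 or F2 DMSO replicate 2.

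Set directly against each other in DMSO, E1 had 3 members higher than F2 (BMP6, BMP7, LTBP2) and 5 lower (SMAD1, SMAD9, ID4, NOG, LTBP1), against 4.05% and 3.52% of all tested genes. LTBP1 was 36.1-fold lower in E1 than in F2 (-5.17 ± 0.0736, adjusted p = 1.9e-19), BMP6 was 55.6-fold higher (5.73 ± 0.145, adjusted p = 8.2e-16) and LTBP2 4.55-fold higher (2.18 ± 0.0865, adjusted p = 7e-13, limma). BMP7 overlapped between these groups and lost its call without E1 DMSO replicate 3 (0.96), with a pseudocount of 5 (0.83) and with only the groups of the contrast in the fit (adjusted p = 0.1, limma). SMAD1 and NOG had at most 10 DMSO reads in either clone. The SMAD1 call was lost with DESeq2 (adjusted p = 0.063), with a pseudocount of 5 (-0.63) and with only the groups of the contrast (adjusted p = 0.059, limma), and the NOG call with edgeR (adjusted p = 0.072), DESeq2 (adjusted p = 0.12) and a pseudocount of 5 (-0.50).

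With tazemetostat, E1 had 1 member higher than WT (ID4) and 5 lower (INHBA, BMP4, GDF5, NOG, FSTL3), against 5.4% and 5.95% of all tested genes. F2 had 2 higher (SMAD9, ID4) and 4 lower (INHBA, GDF11, TGFBR3, BAMBI), against 7.31% and 4.97%. ID4 was above WT in E1 (log2 difference 1.54 ± 0.368, adjusted p = 0.002) and in F2 (2.43 ± 0.368, adjusted p = 2.3e-05, limma). GDF5 was 4.06-fold lower in E1 than in WT (adjusted p = 3.1e-09) and NOG was lower as well (-1.99 ± 0.257, adjusted p = 4.2e-06, limma). LTBP1, BMP6 and BMP7, which differed from WT in DMSO in both clones, were not past the threshold against WT in either clone with tazemetostat, where their log2 differences lay between -0.19 and 0.95.

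The third comparison was of the responses themselves. They are signed differences of log2 changes, so a lower value can be a smaller rise or a fall. The log2 change in E1 was higher than that of WT for 2 members and lower for 7, against 4.79% and 5.21% of all tested genes, and that of F2 was higher for 2 and lower for 5, against 4.82% and 2.66%. Between the clones, the log2 change in E1 was higher than in F2 for 3 members and lower for 6, against 1.78% and 4.02%. The higher ones against WT were rises, of BMP7 and LTBP1 in E1 and of BMP6 and BMP7 in F2. Some of the lower ones were falls where the WT change was not past the threshold, such as GDF5 in E1 (-1.02 against 0.79) and, in F2, TGFBR3 (-1.12 against 0.18), SMAD3 (-1.09 against -0.06) and LTBP1 (-1.31 against -0.18). Of the 3 differences found for INHBA, none was past the threshold with edgeR or DESeq2, and its DMSO groups hold no read.

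Genes of the pathway outside the 46 were described from lists of textbook names. Of 82 such genes 55 were tested. In WT 22 were higher and 1 lower with tazemetostat, against 14.5% and 6.77% of all tested genes. In E1 the numbers were 21 and 1, against 11.3% and 3.78%, and in F2 22 and 2, against 13.3% and 3.71%. Like 5 of the members, 10 of these genes (ACVR1C, FN1, HEY1, ITGB8, MSX2, NEDD4L, PMEPA1, RUNX2, SNAI2 and TGFBI) had a mean under 10 in every DMSO group and had to differ. Among the 45 with a DMSO group mean of at least 10, a count added after the data were seen, 12 were higher and 1 lower in WT, against 8.99% and 7.21% of such genes. In E1 it was 11 and 1, against 5.7% and 3.97%, and in F2 12 and 2, against 7.69% and 3.96%. Of the ligands, GDF7 rose in every line, with log2 changes of 1.10, 1.25 and 1.46 in WT, E1 and F2. Activin receptor ACVR1C, which pairs with activin and nodal ligands, and the BMP co-receptor RGMB rose in every line, with log2 changes of 5.64, 5.06 and 5.61 for ACVR1C and of 1.45, 1.98 and 1.17 for RGMB in WT, E1 and F2. ITGB8, an integrin subunit that releases TGF-beta from its latent form, had no read in DMSO and was at least 113-fold higher in WT, 68.6-fold in E1 and 47.4-fold in F2. THBS1, another activator of latent TGF-beta, rose by 2.77, 1.63 and 3.78 and the anchor LRRC32 by 1.56, 1.08 and 1.69. SOST, listed here among the secreted antagonists, rose by 4.56, 4.66 and 6.33. NEDD4L, a ubiquitin ligase that acts on SMADs, rose by 10.37, 10.58 and 9.56. AMH was lower in WT (-1.25), KCP in E1 (-1.01) and RGMA in F2 (-1.11). Apart from ITGB8, given as folds against the floor of 3 reads per library, these changes are limma log2 changes. All were past the threshold in limma, and those of ACVR1C, ITGB8 and NEDD4L are descriptions.

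Of 11 textbook TGF-beta target genes 7 were higher and 0 lower with tazemetostat in each line, against 14.5%, 11.3% and 13.3% of all tested genes higher in WT, E1 and F2, with median log2 changes of 1.58, 1.38 and 3.09, where the medians of all tested genes lay between 0.021 and 0.026. The 6 that were higher in all 3 lines were FN1, PMEPA1, TGFBI, SNAI2, COL1A1 and TAGLN. The first 4 of these entered the test through their treated libraries and had to differ. Among the 7 targets with a DMSO group mean of at least 10, 3 were higher and 0 lower in each line, with medians of 0.99, 0.79 and 0.82, where 8.99%, 5.7% and 7.69% of such genes were higher. In DMSO FN1, which encodes fibronectin, measured 0.873, 6.60 and 2.84 in WT, 4.46, 7.72 and 5.84 in E1, while F2 had 3.07, 1.04 and 3.64. With tazemetostat FN1 measured 10533, 10978 and 9769 in WT, 4762, 4518 and 5410.1 in E1, while F2 had 13183, 13108 and 13869. PMEPA1, a feedback inhibitor of TGF-beta signalling, had at most 2.07 normalized counts in DMSO and 1789 to 2159 with tazemetostat. SNAI2, a transcription factor of epithelial to mesenchymal transition, had no read in DMSO and was at least 103-fold higher in WT, 109.8-fold in E1 and 96.8-fold in F2. The seventh was CTGF in WT and TGIF1 in E1 and F2. SKIL, SNAI1 and JUNB passed in no line.

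Of 11 BMP targets 10 were tested, 5 of which are members (ID1, ID2, ID3, SMAD6 and SMAD7), and 4 were higher in each line, against the same 14.5%, 11.3% and 13.3% of all tested genes, with median log2 changes of 0.68, 0.51 and 0.49 over the 10. These 4 were RUNX2, MSX2, HEY1 and ATOH8, transcription factors of bone, limb and vessel development, and none of the 5 members was among them. RUNX2, MSX2 and HEY1 had a mean under 10 in every DMSO group and had to differ. Of the 7 targets with a DMSO group mean of at least 10, ATOH8 alone was higher in each line, where 8.99%, 5.7% and 7.69% of such genes were higher. The median log2 changes of these 7 were 0.34 (WT), 0.41 (E1) and 0.36 (F2). In DMSO RUNX2 measured 3.49, 2.83 and 1.89 in WT, 0.893, 0 and 3.90 in E1, while F2 had 7.17, 0 and 1.21. With tazemetostat RUNX2 measured 485, 508 and 489 in WT, 296, 237 and 248 in E1, while F2 had 720.4, 746 and 793. Its log2 changes were 7.07 ± 0.552 (WT), 6.95 ± 0.552 (E1) and 8.17 ± 0.552 (F2) (limma), a description only. MSX1 fell in F2 (-1.04 ± 0.113, adjusted p = 2.4e-07, limma) and had log2 changes of 0.34 in WT and -0.36 in E1.

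**Figure D4:**
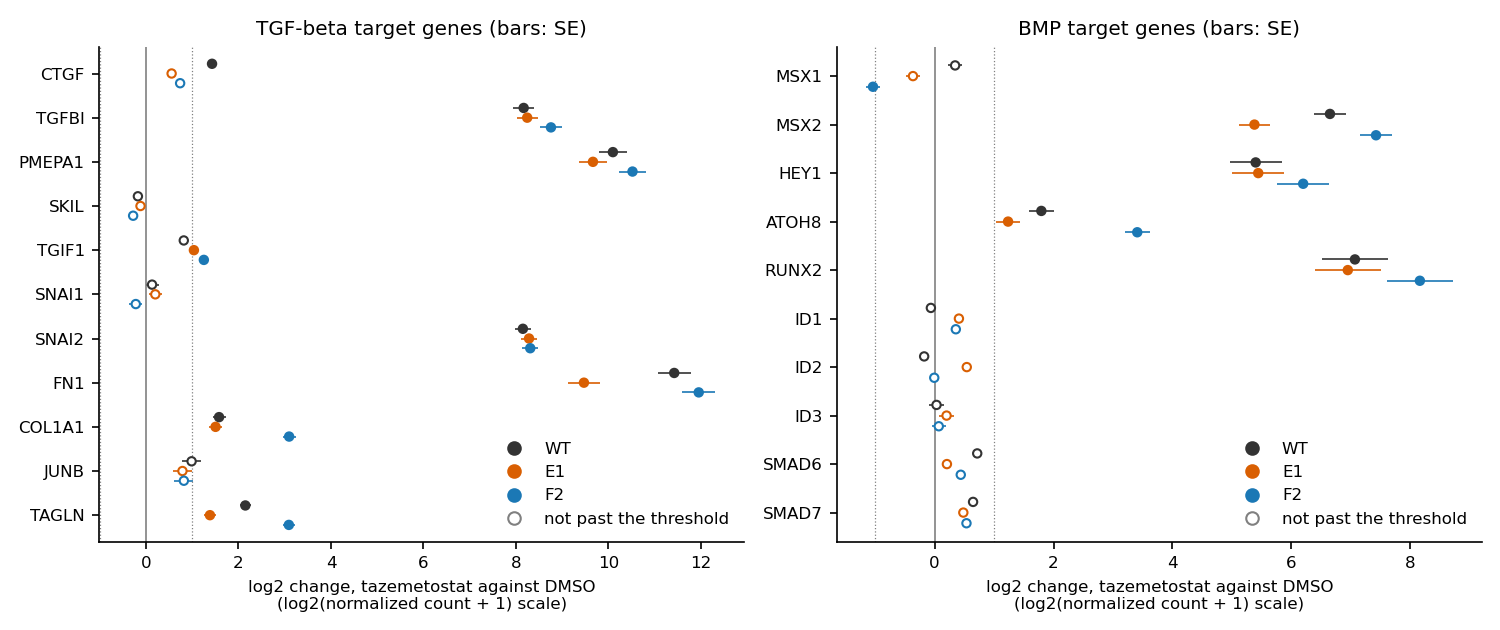
Log2 change with tazemetostat against DMSO on the log2(normalized count + 1) scale (horizontal axes) for 11 TGF-beta target genes (left) and 10 BMP target genes (right) in WT (black), E1 (orange) and F2 (blue). Points are limma estimates with bars of 1 SE, filled where past the threshold, and dotted lines stand at -1 and 1. FN1 and PMEPA1 lie beyond 9 in each line, while ID1, ID2, ID3, SMAD6 and SMAD7 lie between the dotted lines.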

How the data were processed

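RNA of 18 G401 cultures was sequenced after poly(A) selection and TruSeq stranded library preparation with 8 PCR cycles, as pairs of reads of 50 bases, per the labels' protocols. The submitters' processing notes name Trim Galore 0.4.4, STAR 2.6.0a, HTSeq, DESeq2 and the build hg19, and the strand setting of the counting was not given in the sources used here. The deposited values are a signal, gene counts that the authors divided by a size factor per library. Multiplied back, 100% of values were whole reads within 0.01 in each library, with size factors of 0.812 to 1.14. F2 tazemetostat replicate 2 had a factor close to 1 (0.991), so steps alone barely separate its values from unscaled counts.

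Values were tested as log2(value + 1) with limma 3.58.1 (R 4.3.3), a scale that understates the change of low genes, with 6 group means in 1 fit and a variance trend, over genes with a mean of at least 10. p-values were Benjamini-Hochberg adjusted over all tested genes, and the threshold was an adjusted p under 0.05 with a log2 change of at least 1. Changes are given ± SE. Permuting 3 against 3 samples exactly (two-sided) cannot give less than p = 0.1, so no such test was made. A fold against a group without reads was taken against 3 reads per library, and ratios on few reads carry an exact 95% binomial interval. Floors and intervals cover counting error only, as the reads have no molecular identifiers. Alternatives were edgeR 4.0.16 and DESeq2 1.42.0 on the recovered reads, which called 13 and 13 members in WT, 12 and 12 in E1, and 19 and 19 in F2, other pseudocounts, filters and scalings, a replicate block and leaving out each replicate.

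Groups share replicate numbers in their titles. Same-numbered deviations correlated above 0.1 in all 3 pairs for F2 against WT in DMSO (0.108 to 0.375). The reported fit has no block, and a fit with the replicate number as a block was an alternative for all 11 comparisons. All 46 members may be named. All 18 values are given for members past the threshold in a treatment, clone (DMSO) or response comparison with a mean of at least 50, and from each pathway list up to 3 rises and 3 falls per treatment comparison could be named. The members and lists were chosen with earlier results of these data known, and 1 listed target gene and 1 listed marker are not reported here.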

Additional observations from a re-analysis of the deposited data

Results flagged for a closer look

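Responses to tazemetostat that differed between 2 lines, tested in limma as a difference of log2 changes past the threshold, were found for 12 members. LTBP1 differed by 3.87 for E1 minus WT, -1.13 for F2 minus WT and 5.00 for E1 minus F2. BMP6 differed by -3.37 for E1 minus WT, 1.42 for F2 minus WT and -4.79 for E1 minus F2. BMP7 differed by 2.56, 3.66 and -1.10 for the same 3 differences, and the last was lost under 13 of 23 alternatives. INHBA differed by -3.16, -1.94 and -1.22, on DMSO groups with no read, so these equal the differences between treated groups. BMP4 differed by -1.32 for E1 minus WT and -1.25 for E1 minus F2. GDF5 differed by -1.81 for E1 minus WT and -2.12 for E1 minus F2. LTBP2 differed by -1.03 for E1 minus WT and -1.78 for E1 minus F2. TGFBR3 differed by -1.15 for E1 minus WT and -1.31 for F2 minus WT. SMAD3 differed by -1.03 for F2 minus WT and 1.24 for E1 minus F2. FSTL3 differed by -1.45 for E1 minus WT, GDF11 by -1.02 for F2 minus WT, and ID4 by 1.68 for E1 minus F2, which was lost under 11 of 23 alternatives.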

How the results depend on the processing

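Of 102 member results past the threshold, 79 stayed past it under every alternative in which the gene was tested, 23 were lost under at least 1, and 0 changed direction. A result whose gene was removed by a stricter filter was not counted as lost there. For tazemetostat against DMSO this held for INHBA, GDF6, BMPR1B, SMAD1 and NOG in each line, so their place among the 79 is no support. Without a limit on the fold change, the members past the threshold numbered 32 (WT), 31 (E1) and 29 (F2) for tazemetostat against DMSO (as reported 14, 13 and 19). They numbered 14 for E1 and 17 for F2 against WT in DMSO (as reported 4 and 7), 21 and 22 with tazemetostat (6 and 6), 21 and 13 for the responses of E1 and F2 minus WT (9 and 7), 22 for E1 against F2 in DMSO (8), and 15 for their responses (9). Without a filter on low values, E1 against WT with tazemetostat gave 10, and with log2(value + 5), E1 against F2 in DMSO gave 5. With a DMSO group mean of at least 10, an alternative added after the data were seen, tazemetostat gave 9 in WT and 8 in E1, with the 5 members under 10 in every DMSO group left out.

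Leaving out each replicate gave 14 to 14 in WT, 11 to 14 in E1, 18 to 19 in F2, 3 to 4 and 6 to 8 for the clones against WT in DMSO, 6 to 7 and 5 to 7 with tazemetostat, 8 to 11 and 7 to 8 for their responses, and 7 to 9 and 7 to 10 for E1 against F2. The replicate block kept all 11 counts (14, 13, 19, 4, 7, 6, 6, 9, 7, 8 and 9). The labels give a shared replicate number and no more. The response of F2 minus WT holds the same WT and F2 DMSO samples, and 11 of its 18 same-numbered pairs correlated above 0.1. Depth limits the members without DMSO reads, whose folds rest on the floor of 3 reads.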

Other observations

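FSTL1, a secreted follistatin-like protein outside the 46 genes, ordered the lines in DMSO as LTBP1 did. In DMSO FSTL1 measured 679, 703 and 669 in WT, 42.0, 37.6 and 54.6 in E1, while F2 had 4468, 4166 and 3935. With tazemetostat FSTL1 measured 5532, 5459 and 4983 in WT, 3119.5, 3576 and 3398 in E1, while F2 had 7267, 6968 and 6981. It was lower in E1 than in WT in DMSO (-3.92 ± 0.0975, adjusted p = 1.1e-15) and higher in F2 (2.61 ± 0.0975, adjusted p = 8.6e-13), and the responses of E1 and F2 differed by 5.46 ± 0.138, adjusted p = 4.1e-15 (limma log2 differences).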
